A study of Danio rerio with 5 samples.

Results

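The genes described here are the zebrafish collagen genes other than the col4a, col7a and col17a genes, together with the genes that modify, fold and crosslink collagen chains. They were chosen by a rule on gene symbols, set with earlier results of these data known. It took the collagens, the prolyl 4-hydroxylase alpha subunits (p4ha), the lysyl hydroxylases (plod) and the lysyl oxidases (lox and loxl). It also took the collagen chaperone genes serpinh1a and serpinh1b, and the actinodins and1, and2 and and3. The rule found 66 genes of the 30838 gene symbols in the table. They comprised 45 collagens, 3 actinodins, 4 prolyl 4-hydroxylase subunits, 3 lysyl hydroxylases, 9 lysyl oxidases and 2 chaperone genes. By chain family the collagens were 16 fibrillar, 10 FACIT (fibril-associated), 8 beaded filament, 5 short chain, 4 multiplexin and 2 transmembrane genes. The product text of all 45 named a collagen.

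The study asked whether itgb4+ cells of the zebrafish embryo already resemble basal cells at 1 day after fertilization, and RNA of 5 libraries of sorted epidermal cells was sequenced. Adult fin basal cells (1 library) were itgb4+ cells sorted from the caudal fin of adult Tg(itgb4:mcherry) fish, of an age and number that the labels do not state. Embryonic basal precursors (2 libraries) were itgb4+ cells of Tg(itgb4:mcherry) embryos 1 day after fertilization. Embryonic periderm (2 libraries) was sorted as krt4+ cells at the same age from embryos of another transgenic line. That line carries the driver krt4:creERt2, the colour switch Olactb:loxP-dsRed2-loxP-egfp and the marker cryaa:egfp, whose promoter is active in the lens. The labels do not say whether Cre had been activated or which fluorophore was gated. All fish came from an inbred strain derived from Tubingen. Since the labels name no clutch for any replicate, the p-values reflect only how far these libraries differ, which may be technical.

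Collagen chains are hydroxylated on proline and lysine in the endoplasmic reticulum, fold into triple helices that the chaperone Hsp47 (the product of the serpinh1 genes) binds, and are crosslinked outside the cell by lysyl oxidases. Fibrillar collagens build the fibrils, FACIT collagens coat them, and type VI collagen forms beaded filaments around cells. In zebrafish, the embryonic epidermis itself makes much of the early collagen layer beneath it, and actinodins build the horny fibres of the fin fold.

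Gene counts, with 1 transcript row per gene, totalled 3521591 in the adult library, 5521666 and 4903845 in basal precursors, and 4622195 and 7504475 in periderm. Values below are CPM (counts relative to library size) scaled by TMM, edgeR's correction for library composition, whose factor was 0.62 in the adult library and between 0.96 and 1.19 in the embryonic ones. A floor of 3 counts corresponded to 1.38 CPM in the adult library and to between 0.338 and 0.567 CPM in the others, and such floors and all count intervals cover counting error only. The itgb4 transcript behind the basal sort stood at 3916 CPM in adult cells, 488 and 498 in basal precursors and 9.67 and 41.5 in periderm. Of 6 basal markers, itgb4 alone was called higher in basal precursors than in periderm (edgeR adjusted p = 0.0251), against 0.950% of all genes. The log2 fold changes of tp63, itga6b and lamb4 were positive (2.12, 2.73 and 1.21), and that of krtt1c19e was -0.08. The opposite order was seen for krt5, at 1052 and 328 CPM in basal precursors and 4442 and 2845 CPM in periderm (log2 fold change -2.42, edgeR adjusted p = 0.0809). The krt4 transcript behind the periderm sort stood at 197 CPM in adult cells. Its level was 23981 and 18241 CPM in basal precursors, against 60637 and 31116 CPM in periderm. The basal precursor libraries thus also held much krt4. Of 6 periderm markers, krt4 alone did not pass between the embryonic groups (edgeR adjusted p = 0.466). The other 5 (agr1, krt17, anxa1c, cldne and evplb) were between 6.26-fold and 312-fold lower in basal precursors (edgeR adjusted p from 0.00307 to 0.0246). Transcripts of 6 skeletal muscle markers made up 0.00017% of gene counts in the adult library, 1.21% and 2.88% in basal precursors and 1.45% and 3.22% in periderm. Heat shock transcripts (13 genes, a list added after results were known) made up 14.4% of gene counts in the adult library, 11.1% in basal precursor replicate 1, 3.59% in replicate 2, and 3.05% and 1.51% in periderm. In these bulk libraries fewer cells of a type and less RNA per cell cannot be told apart.

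Together the 66 genes held 0.518% of gene counts in adult cells, 2.23% and 1.97% in basal precursors and 0.496% and 0.807% in periderm. The 3 type I collagen genes, the main fibril collagen of skin, carried much of this. Their summed level was 4203 CPM in adult cells, 8574 and 7468 in basal precursors, and 1790.3 and 2952 in periderm. All 3 populations therefore held type I transcripts well above the floor, and the basal precursor libraries held the most. Per kilobase of row length, serpinh1b (1051 CPM per kb), col1a2 (452) and col1a1b (260.1) had the highest levels of the 66 genes in adult cells. The same 3 genes led in basal precursors, with means of 1996, 858 and 420.0 CPM per kb, and were followed by col28a2a with 419. This order is of means only, and serpinh1b stood at 7009.9 CPM in replicate 1 and 1161 CPM in replicate 2. In periderm col1a2 led with a mean of 239.9 CPM per kb, ahead of serpinh1b (111), col1a1b (103) and col28a2a (99.4).

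**Figure D1:**
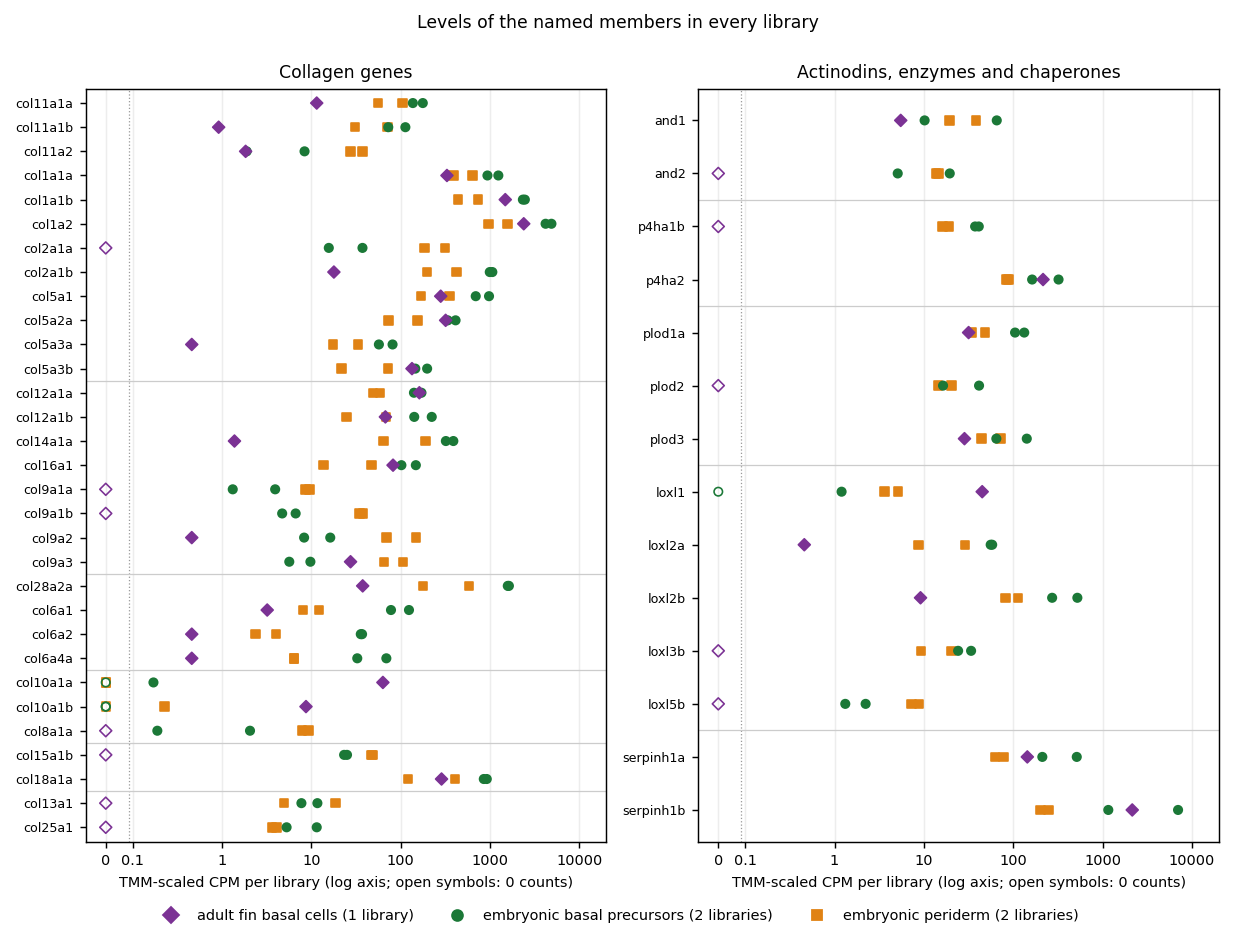
Level of each gene named by the naming rule in every library, in TMM-scaled CPM on a log axis, with open symbols for 0 counts, grouped by family. Adult fin basal cells are purple diamonds (1 library), embryonic basal precursors green circles and embryonic periderm orange squares (2 libraries each). The type I genes are high in all 5 libraries, col2a1a runs from 0 in adult cells to 313 CPM in periderm, and col10a1a reaches 63.3 CPM in adult cells with at most 1 count elsewhere.

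Between the embryonic layers, 3 of the 4 type VI collagen genes and both collagen chaperone genes were higher in basal precursors than in periderm, and 3 of the 4 type IX genes and col2a1a were lower. The transcripts of col6a1, col6a2 and col6a4a were between 7.83-fold and 11.4-fold higher, and serpinh1b was 17.8-fold higher. The col9a1b, col9a2 and col9a3 transcripts were between 6.43-fold and 11.2-fold lower, and col2a1a was 9.45-fold lower. With edgeR's quasi-likelihood test and Benjamini-Hochberg adjustment over 15586 genes, these 8 genes and serpinh1a passed an adjusted p of 0.05. The 9 calls were among 51 members that passed the filter on low counts. Across all genes tested, 3.48% were called, with 0.950% higher and 2.53% lower in basal precursors. Of the 51 members, 9.8% were called higher and 7.84% lower. The filter keeps a gene that reaches the minimum in 1 group alone, so these shares are a description. The median log2 fold change was 1.13 over the 51 members, with 36 positive and 15 negative, against -0.01 over all genes.

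Type VI collagen is a heterotrimer of the col6a chains that links cells to the surrounding fibrils. The col6a1 transcript stood at 78 and 124 CPM in basal precursors, against 12.2 and 8.12 CPM in periderm. The log2 fold change of col6a1 was 3.30 ± 0.44 (SE; edgeR adjusted p = 0.0138, n = 2 libraries each). The col6a2 transcript stood at 37 and 35.8 CPM in basal precursors, against 4.01 and 2.37 CPM in periderm (log2 fold change 3.52 ± 0.50, edgeR adjusted p = 0.017). The col6a4a transcript stood at 32.7 and 69.2 CPM in basal precursors and at 6.39 and 6.43 CPM in periderm (log2 fold change 2.97 ± 0.51, edgeR adjusted p = 0.0303). Without basal precursor replicate 2 this log2 fold change was 2.33. All 3 chains were higher in both basal precursor libraries than in either periderm library. They were picked by their calls on these same libraries, so this order adds no support. How many of all genes show such an order was not counted. The lower-count chain col6a3 stood at 12.7 and 9.08 CPM in basal precursors and at 0.912 and 2.03 CPM in periderm, and did not pass (edgeR adjusted p = 0.0716). Of the other beaded filament genes, col28a2a was the most abundant at 1583 and 1629 CPM in basal precursors, against 178 and 584 CPM in periderm. Its periderm libraries differed by more than its basal ones, and its log2 fold change of 2.05 ± 0.57 did not pass (edgeR adjusted p = 0.102). DESeq2 called col28a2a higher (adjusted p = 0.00501).

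Summed markers of mesenchyme and fin fold fibroblasts were also higher in basal precursors than in periderm, but single markers varied. The 16 marker genes, none of them a collagen, summed to 1762 and 1356 CPM in basal precursors and to 403 and 478 CPM in periderm. The largest parts of these sums were lum and dcn, the latter at 471 and 490.3 CPM in basal precursors and 119 and 175 CPM in periderm. Of 14 tested, 2 were called higher in basal precursors, the matrix proteoglycan gene lum (686 and 339 CPM in basal precursors, against 56.6 and 63.7 CPM in periderm) and the fibroblast protease gene fap (62 and 87 CPM in basal precursors, against 13.7 and 10.6 CPM in periderm). The others, among them pdgfra at 47.6 and 59.6 CPM in basal precursors and 24.1 and 35.2 CPM in periderm, did not pass by edgeR. The nearest of them was dcn (edgeR adjusted p = 0.0517). Across all genes tested, 0.950% were called higher. At an unadjusted p under 0.05 by edgeR there were 7 of the 14 markers, against 18.5% of all genes. DESeq2 called 6 of them, against 8.95% of all genes. No marker of the list was at 0 in both libraries of either embryonic group. Their part in the col6a result was not tested.

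The serpinh1 genes encode Hsp47, an endoplasmic reticulum chaperone that binds the folded procollagen helix. The serpinh1b transcript stood at 7009.9 CPM in basal precursor replicate 1 and 1161 CPM in replicate 2, against 203 and 249 CPM in periderm. The basal precursor libraries differed strongly from each other, yet the lower of them exceeded both periderm libraries. The log2 fold change was 4.15 ± 0.84 (SE; edgeR adjusted p = 0.0443, n = 2 libraries each). Without basal precursor replicate 1 it was 2.36 (edgeR adjusted p = 0.0515), and without replicate 2 it was 4.94. The paralogue serpinh1a stood at 515 and 212 CPM in basal precursors, against 62.2 and 78 CPM in periderm (log2 fold change 2.35 ± 0.48, edgeR adjusted p = 0.0461). Without basal precursor replicate 1 its log2 fold change was 1.60 (edgeR adjusted p = 0.174). Heat shock transcripts varied alongside: the 13 genes summed to 116096 and 30154 CPM in basal precursors and to 25754 and 12753 CPM in periderm, so that replicate 1 was the highest embryonic library on both measures. By edgeR's test, only the co-chaperone gene bag3 of the 13 was called (2170.5 and 515 CPM in basal precursors, against 82.1 and 105 CPM in periderm), against 3.48% of all genes. At an unadjusted p under 0.05 by edgeR there were 7, against 18.5% of all genes, and DESeq2 called 5, against 8.95%. The median log2 fold change of the 13 was 1.53. The part of the heat shock genes in the serpinh1 result was not tested.

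Type II collagen is the fibrillar collagen of cartilage and notochord, and type IX collagen coats its fibrils. The col2a1a transcript stood at 15.7 and 37.4 CPM in basal precursors, against 313 and 185 CPM in periderm (log2 fold change -3.24 ± 0.52, edgeR adjusted p = 0.0258). Its paralogue col2a1b had the opposite order, with 995 and 1063 CPM in basal precursors and 196 and 423 CPM in periderm. It did not pass by edgeR (log2 fold change 1.71 ± 0.45, edgeR adjusted p = 0.0887) and was called by DESeq2 (adjusted p = 0.00959). The col2a1a log2 fold change was -3.99 without basal precursor replicate 2, -2.72 without basal precursor replicate 1 and -2.81 without periderm replicate 1. The col9a3 transcript stood at 5.67 and 9.77 CPM in basal precursors, against 107 and 64.8 CPM in periderm (log2 fold change -3.48 ± 0.48, edgeR adjusted p = 0.0153). The col9a2 transcript stood at 8.31 and 16.3 CPM in basal precursors, against 148 and 69.4 CPM in periderm (log2 fold change -3.15 ± 0.54, edgeR adjusted p = 0.03), and had a log2 fold change of -2.50 without periderm replicate 1. The col9a1b transcript stood at 4.72 and 6.68 CPM in basal precursors, against 38.1 and 34.6 CPM in periderm (log2 fold change -2.68 ± 0.45, edgeR adjusted p = 0.0295). The 4 called genes were lower in both basal precursor libraries than in either periderm library, an order that was not counted over all genes. Since they were picked by their calls on these same libraries, this order adds no support. The fourth type IX gene, col9a1a, stood at 1.32 and 3.94 CPM in basal precursors and at 8.57 and 9.59 CPM in periderm, and col11a2, a chain of cartilage fibrils, stood at 1.89 and 8.4 CPM in basal precursors and at 37.6 and 27.6 CPM in periderm. Neither passed (edgeR adjusted p = 0.214 and 0.0788).

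A list of 13 notochord and cartilage markers other than collagens summed to 318 and 442 CPM in basal precursors and to 271 and 309 CPM in periderm. One gene, hapln1a, which encodes a hyaluronan link protein, made up most of these sums. Without it the sums were 55.7 and 48.8 CPM in basal precursors and 78.8 and 49.4 CPM in periderm. The notochord transcription factor gene noto stood at 0.189 and 0 CPM in basal precursors and at 1.64 and 2.82 CPM in periderm, and the signal gene shha stood at 0.567 and 1.03 CPM in basal precursors and at 10.2 and 3.16 CPM in periderm. The opposite order was seen for the marker ucmab, at 35.9 and 18.3 CPM in basal precursors and 6.75 and 3.38 CPM in periderm (log2 fold change 2.42). The log2 fold changes of hapln1b, hapln1a and sox9a were also positive (1.11, 0.52 and 0.20). Those of epyc and ntd5 were negative (-2.05 and -1.94), as for noto and shha. Of 8 tested markers edgeR called 0, with 4 at an unadjusted p under 0.05, against 18.5% of all genes. DESeq2 called 1, against 8.95% of all genes. The cartilage genes acanb and matn1 were at 0 in every library. The part of such cells in the col2a1a and col9a results was not tested.

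In the main edgeR fit, the most abundant fibrillar chains did not pass between the embryonic layers. The col1a2 transcript stood at 4876 and 4195 CPM in basal precursors, against 963 and 1573 CPM in periderm (log2 fold change 1.82 ± 0.46, edgeR adjusted p = 0.0782). The col1a1b transcript stood at 2457 and 2336 CPM in basal precursors, against 437 and 737 CPM in periderm (log2 fold change 2.01 ± 0.43, edgeR adjusted p = 0.0521). It was called in 6 of 12 alternatives, by DESeq2 (adjusted p = 0.000468) and in 5 edgeR fits (adjusted p from 0.0375 to 0.0475), and col1a2 was called by DESeq2 (adjusted p = 0.0019). Of the 13 fibrillar genes tested, 11 had positive log2 fold changes, from 0.84 to 2.01, and the main edgeR fit called only col2a1a. DESeq2 also called col2a1b, col5a1, col5a2a and col5a3b higher (adjusted p from 0.00959 to 0.0227). The FACIT genes split by type: col12a1a, col12a1b, col14a1a and col16a1 had log2 fold changes between 1.46 and 2.00, while all 4 type IX genes were negative. The main edgeR fit called none of the positive ones. DESeq2 called col12a1a, col12a1b and col16a1 (adjusted p = 0.0158, 0.0107 and 0.0133). With the replicate number as a block, edgeR called col12a1b and col16a1 (edgeR adjusted p = 0.0375 and 0.0458). The 3 tested p4ha genes, whose products hydroxylate proline, had log2 fold changes from 1.13 to 2.29. For the 3 plod genes, whose products hydroxylate lysine, they ran from 0.70 to 1.48. None of these genes was called in the main edgeR fit. DESeq2 called p4ha2 (adjusted p = 0.0375) and plod1a (adjusted p = 0.0257), and p4ha2 was also called without basal precursor replicate 2 (edgeR adjusted p = 0.0294). Of 6 lysyl oxidases tested the main edgeR fit called none. The crosslinking enzyme gene loxl2b came nearest with 523 and 273 CPM in basal precursors, against 82.3 and 114 CPM in periderm (edgeR adjusted p = 0.0528). It was called in 4 of 12 alternatives, by DESeq2 (adjusted p = 0.00179) and in 3 edgeR fits (adjusted p from 0.00913 to 0.0487). The 3 actinodins overlapped between the layers, and1 standing at 10.2 and 65.5 CPM in basal precursors and at 19.3 and 38.5 CPM in periderm.

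The number of embryonic calls depended on the tool and on single libraries. By DESeq2, 27 members were called, 21 of them higher and 6 lower in basal precursors, where 8.95% of all genes were called (3.57% higher and 5.38% lower). At an unadjusted p under 0.05, 36 of the 51 members passed edgeR's test, and so did 2890 of all 15586 genes (18.5%). Without periderm replicate 1 none of the 9 was called (edgeR adjusted p from 0.0839 to 0.297). Without basal precursor replicate 1 the calls of serpinh1a, serpinh1b, col2a1a, col9a1b, col9a2 and col9a3 were lost, and without periderm replicate 2 those of col6a1, col6a2, col6a4a, col9a1b, serpinh1a and serpinh1b. Each such fit had 1 residual degree of freedom. With all rows of a symbol summed, the calls of col2a1a, col6a4a, col9a1b, col9a2, serpinh1a and serpinh1b were lost (edgeR adjusted p from 0.0565 to 0.0793).

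**Figure D2:**
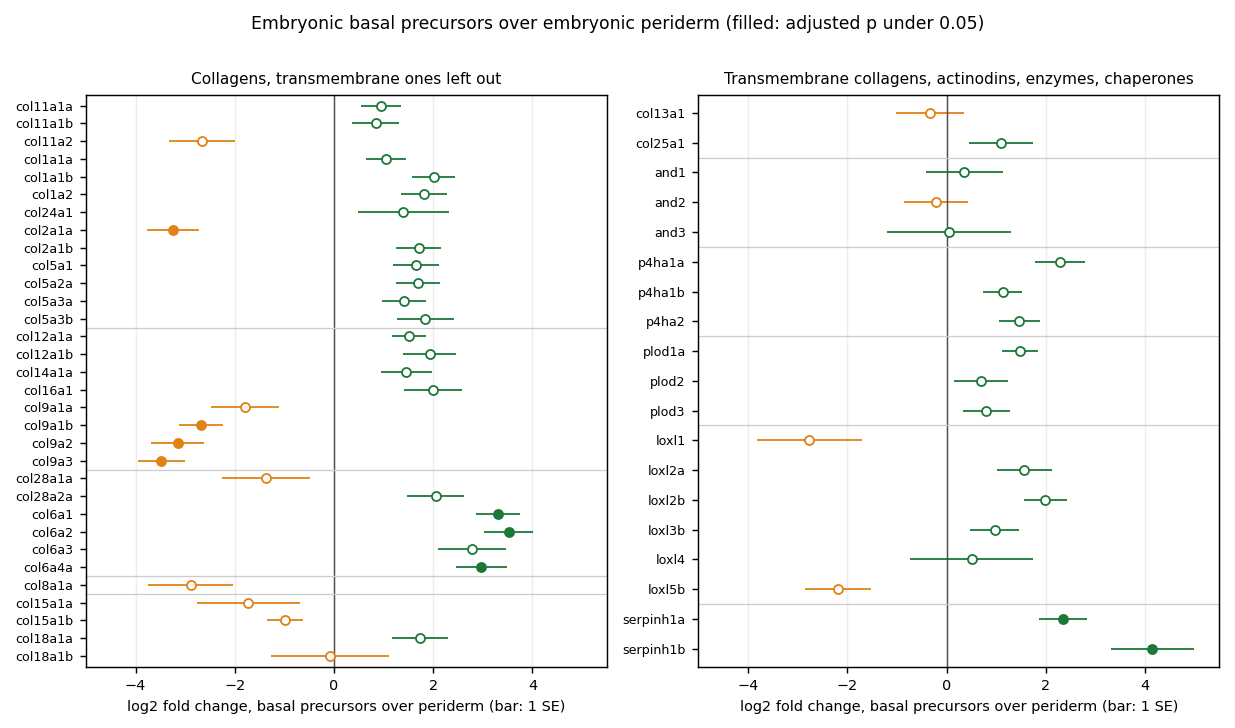
Log2 fold change of embryonic basal precursors over embryonic periderm for the members tested, from edgeR's fit on 4 libraries, with bars of 1 SE and filled points for an adjusted p under 0.05, grouped by family. The filled points on the right are col6a1, col6a2, col6a4a, serpinh1a and serpinh1b, and those on the left are col2a1a, col9a1b, col9a2 and col9a3.

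Against embryonic basal precursors, adult fin basal cells had far lower levels of many collagens and crosslinking enzymes. The main edgeR fit called none of the type I genes. Their log2 fold changes were also negative (-1.72 for col1a1a, -0.69 for col1a1b and -0.92 for col1a2). Of 58 members tested, 21 were lower in adult cells and 3 were higher, namely col10a1a, col10a1b and loxl1. Across all 18144 genes tested 23.0% were called, 11.4% lower and 11.6% higher, against 36.2% lower and 5.17% higher among the members tested. The filter keeps a gene that reaches the minimum in 1 group alone, so these shares and all later shares of adult calls are a description. The median log2 fold change of the members was -4.82, against -0.59 over all genes. With genes at 0 counts in a group set to their bound, the medians were -1.67 and -0.34. These left out genes whose other group did not exceed the floor. The adult group was 1 library, assumed to vary like the embryonic ones, so the spread behind every adult p came from the embryonic libraries. Of the 21 lower genes, 8 had 0 counts in the adult library and 7 had between 1 and 3. In all, 25 of the 66 genes had 0 adult counts, and col8a1b had none in any library. For col21a1, col27a1b, col28a2b, col5a2b, loxa and loxl5a both embryonic means were themselves under the adult floor of 1.38 CPM. The share of all genes at 0 adult counts was not counted.

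Against embryonic periderm the same adult library gave 20 lower and 5 higher members of 58, where 14.4% of all genes were called lower, 14.2% higher and 28.6% in either direction. With the same filter, these shares are a description as well. The higher members were col10a1a, col10a1b, loxl1, col12a1a and serpinh1b. The median log2 fold change of the members was -2.75 (-1.64 with bounds set in the same way), against -0.72 (-0.47) over all genes. Both comparisons use the adult library, so their 16 shared lower and 3 shared higher genes are not separate evidence. The fold changes below are given for the comparison with basal precursors and then for that with periderm.

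Among fibrillar chains, col2a1a, col2a1b, col11a1a, col11a1b and col5a3a were lower in adult cells than in both embryonic populations. The col2a1b transcript stood at 17.9 CPM in adult cells, against 995 and 1063 CPM in basal precursors and 196 and 423 CPM in periderm. Its log2 fold changes were -5.84 ± 0.81 and -4.11 ± 0.74 (SE; edgeR adjusted p = 0.00319 and 0.00649), and without periderm replicate 2 the difference from periderm was -3.44. The col2a1a transcript had 0 adult counts, so it was at least 19.3-fold lower than in basal precursors and at least 181-fold lower than in periderm (edgeR adjusted p = 0.011 and 0.00205). Type XI collagen nucleates thin fibrils, and its chain gene col11a1a stood at 11.5 CPM in adult cells, against 177 and 137 CPM in basal precursors and 55.5 and 105 CPM in periderm (log2 fold changes -3.77 ± 0.68 and -2.80 ± 0.65, edgeR adjusted p = 0.00783 and 0.0163). Its copy col11a1b had 2 adult counts, 0.918 CPM, against 72.7 and 113 CPM in basal precursors and 30.7 and 71.1 CPM in periderm. The ratio was 101-fold lower than basal precursors (95% Poisson interval 28 to 834) and 55.4-fold lower than periderm (15.3 to 458). The type V chain gene col5a3a had 1 adult count, 0.459 CPM, against 57.1 and 81.2 CPM in basal precursors and 17.5 and 33.4 CPM in periderm (151-fold lower, interval 27 to 5949.9, and 55.5-fold lower, interval 9.95 to 2190.4). The col11a2 transcript, at 1.84 CPM in adult cells, was called lower against periderm (37.6 and 27.6 CPM; edgeR adjusted p = 0.0297), a call lost without either periderm library (edgeR adjusted p = 0.0731 and 0.0522). Without periderm replicate 2 the fitted log2 fold change of col11a1b over periderm was -5.01, against -5.76 with it.

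In the main edgeR fit, the type I chains and the other type V chains did not pass in either adult comparison. The col1a2 transcript stood at 2389 CPM in adult cells, against 4876 and 4195 CPM in basal precursors and 963 and 1573 CPM in periderm. The col1a1b transcript stood at 1484 CPM in adult cells, against 2457 and 2336 CPM in basal precursors and 437 and 737 CPM in periderm. Both adult values lay between the embryonic groups. The col1a1a transcript was below both, at 330.0 CPM in adult cells, against 1241 and 937 CPM in basal precursors and 391 and 641 CPM in periderm (log2 fold changes -1.72 ± 0.59 and -0.65 ± 0.55, edgeR adjusted p = 0.0673 and 0.39). Against basal precursors it was called lower by DESeq2 (adjusted p = 0.0362), with library totals (edgeR adjusted p = 0.0122) and without basal precursor replicate 2 (edgeR adjusted p = 0.0406), and against periderm with library totals (edgeR adjusted p = 0.0478). The col1a1b transcript was called higher against periderm by DESeq2 (adjusted p = 0.0325). The col5a2a transcript stood at 319 CPM in adult cells, against 337 and 412 CPM in basal precursors and 73.5 and 155 CPM in periderm. The col5a3b transcript stood at 134 CPM in adult cells, against 146 and 198 CPM in basal precursors and 21.7 and 72.5 CPM in periderm. For both genes the adult library was close under the basal precursor libraries and above the periderm ones. The col5a1 transcript stood at 281 CPM in adult cells, within the periderm values of 169.9 and 353 CPM and below the basal precursor values of 693 and 976 CPM. With library totals col5a1 was called lower against basal precursors (edgeR adjusted p = 0.0234). Against periderm, col5a2a was called higher by DESeq2 (adjusted p = 0.0386) and without basal precursor replicate 2 or periderm replicate 2 (edgeR adjusted p = 0.0349 and 0.0491), and col5a3b without periderm replicate 2 (edgeR adjusted p = 0.0268).

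Among fibril-associated collagens, col14a1a and 3 of the 4 type IX genes had at most 3 counts in the adult library, while col12a1a, col12a1b and col16a1 stood well above the floor. The col14a1a product is known in zebrafish from the embryonic epidermal basement membrane. It had 3 adult counts, 1.38 CPM, against 321 and 389 CPM in basal precursors and 64 and 189 CPM in periderm, and was 258-fold lower (95% Poisson interval 88.3 to 1252) and 91.9-fold lower (31.4 to 445). Without periderm replicate 2 its fitted log2 fold change over periderm was -5.50, against -6.50 with it. Of the type IX genes, col9a1a and col9a1b had 0 adult counts and col9a2 had 1. The col9a2 ratio was 26.8-fold lower than basal precursors (interval 4.81 to 1058) and 237-fold lower than periderm (42.5 to 9344). Its fitted log2 fold change over periderm was -7.81, and -7.17 without periderm replicate 1. The col9a1b transcript was at least 4.14-fold and at least 26.4-fold lower, and col9a1a passed against periderm alone, at least 6.6-fold lower. With summed rows the calls of col9a2 against basal precursors and of col9a1a against periderm were lost (edgeR adjusted p = 0.0616 and 0.065). The col9a1b call against basal precursors was lost without basal precursor replicate 2 (edgeR adjusted p = 0.0673), and the col9a1a call without periderm replicate 2 (edgeR adjusted p = 0.053). The fourth chain, col9a3, stood at 27.5 CPM in adult cells, above the 5.67 and 9.77 CPM of basal precursors and below the 107 and 64.8 CPM of periderm, and passed in neither (edgeR adjusted p = 0.0545 and 0.0757). The col12a1a transcript stood at 162 CPM in adult cells, against 171 and 141 CPM in basal precursors and 49.3 and 58.9 CPM in periderm, and was called higher against periderm (log2 fold change 1.59 ± 0.43, edgeR adjusted p = 0.0283). With library totals in place of TMM that log2 fold change was 0.65 (edgeR adjusted p = 0.279), and the call was also lost without either periderm library (edgeR adjusted p = 0.101 and 0.0642). The col12a1b transcript (67.5 CPM in adult cells) and col16a1 (82.2 CPM) passed in neither comparison. With library totals col12a1b was called lower against basal precursors (edgeR adjusted p = 0.0418). The log2 fold change of col16a1 over periderm was 1.42, and 2.60 without periderm replicate 2.

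Of 6 beaded filament genes tested, 4 were called lower in adult cells against basal precursors and 1 against periderm. The col28a2a transcript stood at 37.6 CPM in adult cells, against 1583 and 1629 CPM in basal precursors and 178 and 584 CPM in periderm (log2 fold changes -5.41 ± 0.95 and -3.34 ± 0.85, edgeR adjusted p = 0.00719 and 0.0227). The difference from periderm lost its call without periderm replicate 2 (log2 fold change -2.23, edgeR adjusted p = 0.0773) and was -3.95 without replicate 1. The col6a1 transcript stood at 3.21 CPM in adult cells, against 78 and 124 CPM in basal precursors, a log2 fold change of -4.97 ± 0.77 (edgeR adjusted p = 0.00472). The col6a2 and col6a4a transcripts had 1 adult count each, and their ratios were 79.4-fold lower (95% Poisson interval 14.2 to 3134) and 111-fold lower (19.9 to 4385) than basal precursors. For col6a4a the fitted log2 fold change was -6.73, and -6.09 without basal precursor replicate 2. None of the col6a genes passed against periderm in the main fit. With library totals col6a1 was called lower against periderm (edgeR adjusted p = 0.0391).

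The multiplexins carry sugar chains in basement membranes. The col15a1b transcript had 0 adult counts, against 25.1 and 23.3 CPM in basal precursors and 48.2 and 47 CPM in periderm, so it was at least 17.6-fold and at least 34.6-fold lower (edgeR adjusted p = 0.00457 and 0.00219). The col18a1a transcript stood at 287 CPM in adult cells, against 853 and 921 CPM in basal precursors and 121 and 404 CPM in periderm, and passed in neither. With library totals col18a1a was called lower against basal precursors (edgeR adjusted p = 0.0343). Both transmembrane genes had 0 adult counts. The col25a1 transcript was called lower against basal precursors (5.29 and 11.5 CPM, at least 6.09-fold, edgeR adjusted p = 0.0495), a call lost without either basal precursor library (edgeR adjusted p = 0.0623 and 0.168). The col25a1 call was also lost with RLE scaling and with no filter (edgeR adjusted p = 0.0582 and 0.0558). The col13a1 transcript was called lower against periderm (4.93 and 18.6 CPM, at least 8.55-fold, edgeR adjusted p = 0.044). That call was lost without basal precursor replicate 1 (edgeR adjusted p = 0.0517).

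Type X collagen, a short chain network collagen known in zebrafish from bone-forming cells, had the opposite pattern. The col10a1a transcript had 138 counts in the adult library, 63.3 CPM, against 0 and 1 count in basal precursors and 0 in both periderm libraries. It was 739-fold higher than in basal precursors (95% Poisson interval 133 to 29201) and at least 143-fold higher than in periderm (edgeR adjusted p = 0.00184 and 0.00128). The only basal precursor count was in replicate 2. The col10a1b transcript stood at 8.72 CPM in adult cells, against 0 in both basal precursor libraries and 0 and 0.226 CPM in periderm. It was at least 16.1-fold higher than in basal precursors and 77.3-fold higher than in periderm (interval 21.4 to 638; edgeR adjusted p = 0.0189 and 0.0191). Its calls were lost without either basal precursor library (edgeR adjusted p = 0.0574 and 0.0624) and without either periderm library (0.0812 and 0.0632). The col10a1b call against periderm was also lost with edgeR's older fit (edgeR adjusted p = 0.0553). Other bone markers in the adult library were runx2a and runx2b, both at 24.3 CPM, and bglap at 7.34 CPM, each called higher in both comparisons. They were 3 of 4 tested, where 11.6% and 14.2% of all genes were called higher. The marker ifitm5 stood at 1.84 CPM in adult cells. The 7 bone markers summed to 57.8 CPM in adult cells, 3.78 and 4.97 CPM in basal precursors and 3.65 and 1.13 CPM in periderm. The osteoblast genes sp7, spp1 and entpd5a were at 0 in the adult library. For spp1 and entpd5a both embryonic means were themselves under the adult floor of 1.38 CPM. The part of the bone markers in the type X result was not tested.

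Among the enzymes that hydroxylate collagen chains, p4ha1b and plod2 were lower in adult cells than in both embryonic populations. The prolyl 4-hydroxylase gene p4ha1b had 0 adult counts, against 41.2 and 37.5 CPM in basal precursors and 16.1 and 19.2 CPM in periderm, at least 28.6-fold and at least 12.8-fold lower (edgeR adjusted p = 0.00347 and 0.00572). The related p4ha2 stood at 216 CPM in adult cells, within the 322 and 163 CPM of basal precursors and above the 83.7 and 88.4 CPM of periderm, and passed in neither. The lysyl hydroxylase gene plod2 had 0 adult counts, against 16.4 and 41.5 CPM in basal precursors and 14.4 and 20.5 CPM in periderm, at least 21-fold and at least 12.7-fold lower (edgeR adjusted p = 0.0122 and 0.0158). The plod1a transcript stood at 31.7 CPM in adult cells, against 133 and 105 CPM in basal precursors (log2 fold change -1.91 ± 0.53, edgeR adjusted p = 0.0362), and lost this call without basal precursor replicate 1 (edgeR adjusted p = 0.0863). The plod3 transcript stood at 28.5 CPM in adult cells, against 142 and 64.8 CPM in basal precursors and 44.2 and 72.3 CPM in periderm. It passed in neither main comparison. Against basal precursors it was called lower with library totals and with summed rows (edgeR adjusted p = 0.0159 and 0.0414). Against periderm it was called lower with library totals (edgeR adjusted p = 0.0343).

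The lysyl oxidases, which crosslink collagen and elastin, differed from one another in direction. The loxl2b transcript stood at 9.18 CPM in adult cells, against 523 and 273 CPM in basal precursors and 82.3 and 114 CPM in periderm (log2 fold changes -5.44 ± 0.76 and -3.42 ± 0.70, edgeR adjusted p = 0.00331 and 0.0103). Its copy loxl2a had 1 adult count, against 58.2 and 56 CPM in basal precursors and 8.76 and 28.7 CPM in periderm, ratios of 124-fold lower (95% Poisson interval 22.3 to 4915) and 40.8-fold lower (7.31 to 1609.7). Its fitted log2 fold change over periderm was -5.30, -5.89 without periderm replicate 1 and -4.16 without replicate 2. The loxl3b transcript had 0 adult counts and was at least 21-fold and at least 10.7-fold lower. In contrast loxl1, a family member known in mammals for elastic fibre upkeep, stood at 45 CPM in adult cells, against 0 and 1.2 CPM in basal precursors and 5.11 and 3.61 CPM in periderm (log2 fold changes 6.12 ± 0.99 and 3.38 ± 0.81, edgeR adjusted p = 0.00478 and 0.0165). The log2 fold change over basal precursors was 5.16 without basal precursor replicate 1, and without replicate 2 basal precursors had 0 counts. The call against periderm was lost without either periderm library (edgeR adjusted p = 0.0867 and 0.109). The loxl5b transcript had 0 adult counts and was called lower against periderm (7.3 and 8.8 CPM, at least 5.85-fold), a call lost without either periderm library and without basal precursor replicate 1 (edgeR adjusted p from 0.0518 to 0.0694).

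Of the actinodins, and2 had 0 adult counts, against 5.1 and 19.5 CPM in basal precursors and 13.7 and 14.6 CPM in periderm, at least 8.95-fold and at least 10.3-fold lower (edgeR adjusted p = 0.0442 and 0.0326). The call against basal precursors was lost without basal precursor replicate 2, with RLE scaling and with all rows of a symbol summed (edgeR adjusted p = 0.0939, 0.0505 and 0.0733), and that against periderm with summed rows (edgeR adjusted p = 0.0567). The and1 transcript, at 5.51 CPM in adult cells, passed in neither. The chaperone gene serpinh1b stood at 2152 CPM in adult cells, between the basal precursor libraries (7009.9 and 1161 CPM) and above both periderm libraries (203 and 249 CPM). It was called higher against periderm (log2 fold change 3.25 ± 0.90, edgeR adjusted p = 0.0305), a call lost without either periderm library (edgeR adjusted p = 0.18 and 0.144). Its log2 fold change over basal precursors was -0.92 ± 0.97, and 0.85 without basal precursor replicate 1. The 13 heat shock genes summed to 232125 CPM in adult cells, the highest of the 5 libraries, and their part in the serpinh1b level was not tested.

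**Figure D3:**
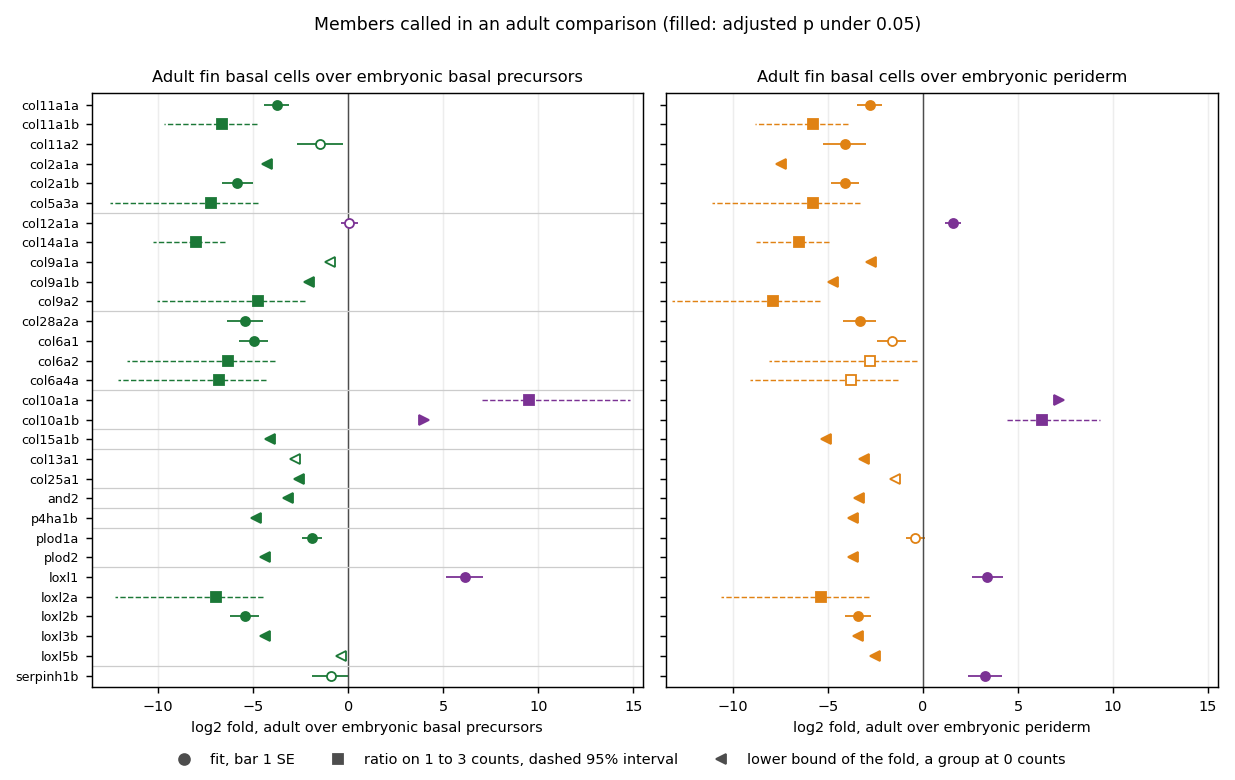
Log2 fold of adult fin basal cells over embryonic basal precursors (left) and over embryonic periderm (right) for members called in an adult comparison, filled where the adjusted p was under 0.05. Circles are edgeR estimates with bars of 1 SE, squares are ratios on 1 to 3 counts with 95% Poisson intervals, and triangles are bounds where a group had 0 counts. The type X genes and loxl1 lie to the right in both panels, and most other called members lie to the left.

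Summed markers of mesenchyme, endothelium and muscle were lower in the adult library than in any embryonic one. The 16 mesenchyme markers summed to 232 CPM in adult cells, 1762 and 1356 CPM in basal precursors and 403 and 478 CPM in periderm. Of the 15 tested, 11 were called lower in adult cells than in basal precursors, against 11.4% of all genes. Against periderm 9 were called lower and 1 higher, where 14.4% and 14.2% of all genes were. Of the 16, prrx1b, twist1b, pdgfra, pdgfrb, meox1, foxc1a, foxd1 and tcf15 were at 0 in the adult library. For pdgfrb the embryonic means of 0.738 and 1.22 CPM were themselves under the adult floor of 1.38 CPM. In contrast msx3, foxc1b and twist2 were highest in the adult library (132, 26.6 and 1.84 CPM). The remaining prrx1a, twist1a, lum, dcn and fap had adult counts but stood below both basal precursor libraries. Of 13 notochord and cartilage markers in the table, 10 were at 0 in the adult library, and the list summed to 78.5 CPM in adult cells, 318 and 442 CPM in basal precursors and 271 and 309 CPM in periderm. Without hapln1a, which had 0 adult counts, the sums were 78.5 CPM in adult cells, 55.7 and 48.8 CPM in basal precursors and 78.8 and 49.4 CPM in periderm, which overlap. Most of the adult sum was matn3a, a cartilage matrix gene (41.8 CPM in adult cells, against 1.32 and 0.171 CPM in basal precursors and 0.73 and 1.24 CPM in periderm), and sox9a, a cartilage transcription factor gene (32.6 CPM in adult cells, against 8.69 and 9.42 CPM in basal precursors and 9.85 and 5.87 CPM in periderm). All 4 endothelial markers were at 0 in the adult library, and the 6 muscle markers summed to 2.75 CPM in adult cells, 12673 and 24242 CPM in basal precursors and 12254 and 27272 CPM in periderm. The part of these cells in the lower adult collagen levels was not tested.

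**Figure D4:**
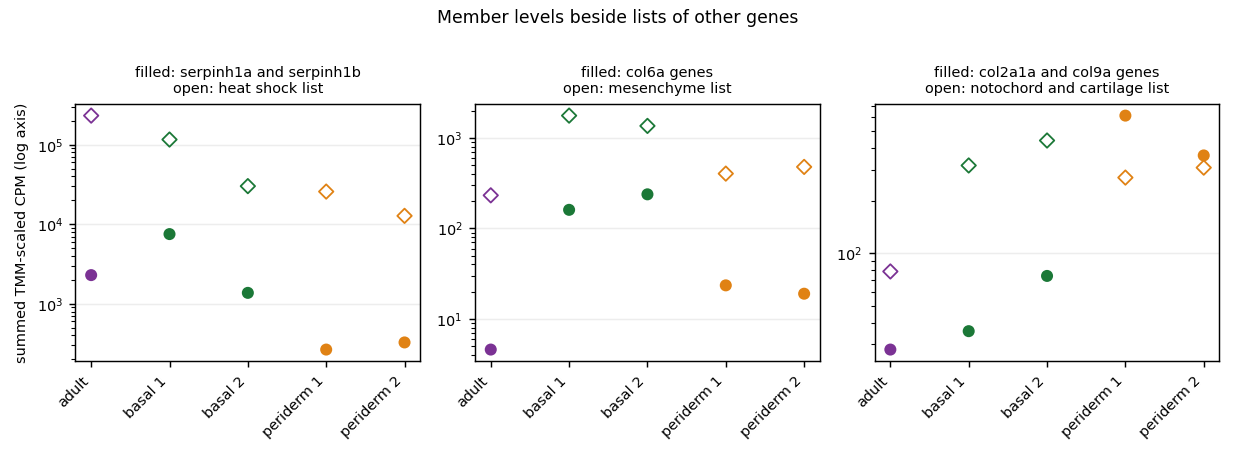
Summed TMM-scaled CPM per library on a log axis, for member sets (filled) and lists of other genes (open). In the left panel serpinh1a and serpinh1b (2295 in adult cells, 7525 and 1373 in basal precursors, 266 and 327 in periderm) stand beside 13 heat shock genes; in the middle panel the col6a genes (4.59 in adult cells, 160.4 and 238 in basal precursors, 23.5 and 19 in periderm) stand beside 16 mesenchyme markers; and in the right panel col2a1a with the col9a genes (28 in adult cells, 35.7 and 74 in basal precursors, 614 and 363 in periderm) stands beside 13 notochord and cartilage markers.

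Many of these genes exist as a and b copies, and the share of the a copy, from counts per row length, differed between libraries. The col1a1a share of the col1a1 pair was 18.6% in adult cells (95% Wilson interval 17.4 to 19.9), 34.2% and 29.2% in basal precursors and 47.9% and 47.2% in periderm. The 3 populations thus had separate shares, lowest in adult cells. The col2a1a share was 0% in adult cells (interval up to 9.76), 1.7% and 3.72% in basal precursors, and 63.6% and 32.4% in periderm. The col5a3a share was 0.267% in adult cells (interval 0.0471 to 1.5), 23.5% and 24.3% in basal precursors, and 38.7% and 26.5% in periderm. Every adult count on the kept rows of the p4ha1 pair was of p4ha1a (lower limit of the interval 89.7%). The p4ha1a share was 42.3% and 46.1% in basal precursors, and 31.8% and 21.2% in periderm. The serpinh1a share was low throughout, at 3.45% in adult cells, 3.78% and 8.89% in basal precursors and 14.1% and 14.3% in periderm. For col12a1a the embryonic groups overlapped, with 72.7% in adult cells, 57% and 41.1% in basal precursors, and 68.7% and 48.5% in periderm. These shares were compared without a test, and reads shared by similar copies could shift them. They used the 1 kept row of each symbol and its length, and p4ha1a and p4ha1b, for example, had 5 rows each. Counts on other rows could also shift the shares, which the intervals do not cover.

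**Figure D5:**
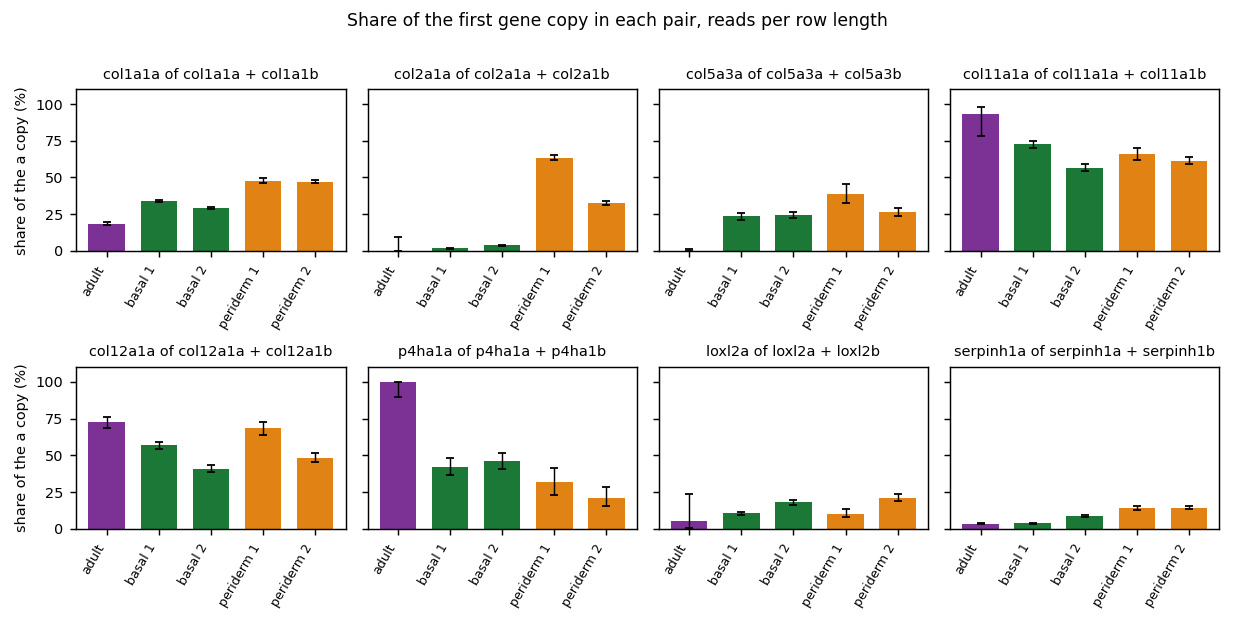
Share of the a copy in 8 gene pairs, in percent of the counts per row length of the kept rows of both copies, for each library. Error bars are 95% Wilson intervals for counting error. The col1a1a share is lowest in adult cells (18.6%) and highest in periderm (47.9% and 47.2%), and the p4ha1a bar fills the whole scale in adult cells.

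Chains that assemble into one molecule kept a near constant ratio for type I collagen but not for type IX. Per row length, the summed col1a1 copies over col1a2 gave 0.707 in adult cells, 0.709 and 0.729 in basal precursors and 0.807 and 0.823 in periderm. The ratio of col9a2 to col9a3 was 0.0159 in adult cells, on 1 count of col9a2, against 1.39 and 1.59 in basal precursors and 1.31 and 1.02 in periderm. The type V ratio of col5a1 to col5a2a was 0.564 in adult cells, 1.32 and 1.52 in basal precursors and 1.48 and 1.45 in periderm. The type VI ratio of col6a1 to col6a2 was 5.65 in adult cells, on 1 count of col6a2, against 1.7 and 2.8 in basal precursors and 2.46 and 2.77 in periderm. The type I ratio thus varied little across libraries whose type I level ranged from 1790.3 to 8574 CPM.

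Of 35 other genes of collagen folding, modification, export and cleavage, 29 were in the table. Between the embryonic layers edgeR called 0 of 26 tested, against 3.48% of all genes. At an unadjusted p under 0.05 by edgeR there were 14, against 18.5% of all genes, and DESeq2 called 7, against 8.95%. The median log2 fold change of these genes was 1.22. In adult cells over basal precursors 1 of 28 was called higher and 6 lower, against 11.6% and 11.4% of all genes. Over periderm 3 of 28 were called higher and 2 lower, against 14.2% and 14.4% of all genes. The gene pcolceb, a procollagen C-proteinase enhancer, stood at 828 CPM in adult cells, against 0.189 and 1.37 CPM in basal precursors and 0.182 and 0 CPM in periderm. Its log2 fold change over basal precursors was 9.97 ± 0.85 (edgeR adjusted p = 0.000586), and it was 9082-fold higher than in periderm (95% Poisson interval 1630.0 to 358721). The matrix protein gene sparc stood at 2002 CPM in adult cells, against 1775 and 1118 CPM in basal precursors and 499 and 438 CPM in periderm, and the transport coat gene sec24d at 59.7 CPM in adult cells, against 25.9 and 34.4 CPM in basal precursors and 5.84 and 19.5 CPM in periderm. Both were called higher against periderm (edgeR adjusted p = 0.0216 and 0.0418). The prolyl isomerase gene fkbp14 stood at 6.88 CPM in adult cells, against 147 and 146 CPM in basal precursors and 45.1 and 54.5 CPM in periderm (edgeR adjusted p = 0.00316 and 0.00981). The N-propeptide protease gene adamts3 had 0 adult counts and was at least 11.3-fold and at least 11.8-fold lower. Against basal precursors fkbp10b (40.9 CPM in adult cells, 330.3 and 236 CPM in basal precursors) and the prolyl 3-hydroxylase gene p3h3 (0.918 CPM in adult cells, 19.1 and 19 CPM in basal precursors) were also called lower, with p3h1 and fkbp7.

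Across the 3 comparisons 32 of the 66 genes were called at least once and 34 in none. The 32 were 55.2% of the 58 members tested, and of all 18150 genes tested in any of them 32.7% were called at least once. The naming rule covered 45 genes, and the highest population mean among the other 21 was 20.5 CPM, for p4ha1a. Of those 21, col8a1b had no count, and loxa, loxl3a, loxl5a, col28a1b and col28a2b stayed under 1 CPM in every library. The short chain gene col8a1a stood at 0 in adult cells, 0.189 and 2.06 CPM in basal precursors, and 9.3 and 7.9 CPM in periderm, and passed in no comparison.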

How the data were processed

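The authors deposited raw counts, 1 whole number of reads for each transcript row and library, without scaling. HISAT2 2.2.1, featureCounts 2.0.3 and the build GRCz11 are named, per the submitters' processing notes. The labels state neither strand use nor how reads with more than 1 alignment were handled, so antisense partners and near-identical copies cannot be told apart. RPKM and TPM values stand in the same table, per the file headers, and entered no test; the row lengths there served for levels per kilobase. The table had 75805 rows. Each symbol was represented by its row with the highest mean count, and 43 members had more than 1 row. Of 57 names turned into dates, 46 were matched by accession.

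Genes were tested with edgeR 4.0.16 (R 4.3.3), using filterByExpr, TMM, glmQLFit and glmQLFTest, a threshold of 0.05 and Benjamini-Hochberg adjustment over all genes. The SE is the absolute log2 fold change over the square root of F. The embryonic fit used 4 libraries, the adult fits all 5. The same code was tested on simulated data. Against a group without counts, folds are bounds computed with 3 counts in each of its libraries. Members and lists were chosen with earlier results of these data known. The genes named are members called in any comparison, members with at least 100 CPM in a population, the 2 highest per family, serpinh1b, col6a1 and col2a1a, and up to 4 other pathway genes per direction with at least 10 CPM. The genes p4ha1a, col6a3, p3h1 and fkbp7, those under 1 CPM and the marker genes were named after their values were seen. Alternatives were RLE scaling, library totals, no filter, summed rows, edgeR's older fit, DESeq2 1.42.0, each embryonic library left out, the replicate number as a block, and the embryonic comparison fitted with the adult library included.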

Additional observations from a re-analysis of the deposited data

How the results depend on the processing

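The embryonic count of 9 called members was 3 with all rows of a symbol summed and 27 with DESeq2. It ranged from 0 to 13 when each embryonic library was left out, at 3 without basal precursor replicate 1, 0 without periderm replicate 1 and 5 without periderm replicate 2, fits with 1 residual degree of freedom each. Over all genes the calls numbered 543, against 202 with summed rows, 1395 with DESeq2, 194 and 948 without basal precursor replicates 1 and 2, and 75 and 293 without periderm replicates 1 and 2. Other alternatives gave 7 to 12, and none of the 9 calls held under all 12 alternatives. The cause was not tested. With the replicate number as a block, 12 members were called and serpinh1a and serpinh1b were lost (edgeR adjusted p = 0.0572 and 0.0622). The labels do not say that a replicate number marks a shared clutch or day, so the main fit used no block. Deviations of same-numbered libraries had r = 0.169 across 18144 genes, which on 2 pairs cannot decide whether the numbers pair them. No alternative left out the single adult library, so how far adult cells vary entered none of them. The adult counts stayed between 22 and 33 against basal precursors and between 19 and 30 against periderm, and 18 of 24 and 15 of 25 calls held under all 10 alternatives.

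Some log2 fold changes that had not passed changed sign. Over basal precursors, col12a1a (0.06) gave -0.72 with library totals, -0.04 with no filter and -0.07 without basal precursor replicate 2 (0.16 without replicate 1); p4ha2 (-0.17) gave 0.05 with RLE scaling and with DESeq2, and 0.37 without basal precursor replicate 1 (-0.58 without replicate 2); serpinh1b (-0.92) gave 0.85 without basal precursor replicate 1 (-1.70 without replicate 2). Over periderm, library totals gave -0.42 for col12a1b, -0.80 for col18a1a, -0.02 for col1a2 and -0.83 for col5a1. Without periderm replicate 1 the values were -0.03 for col12a1b, -0.49 for col18a1a and -0.32 for col5a1, against 1.46, 1.26 and 0.74 without periderm replicate 2 in the same order, and col5a1 gave -0.00 with no filter. Library totals moved the median of all genes to -1.38 over basal precursors and -1.66 over periderm, against -0.59 and -0.72 with TMM. Adult levels under 1.38 CPM lay below the floor of 3 counts.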
